A study of Mus musculus with 106 samples.

Results

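Potassium channels that set the resting potential were read in RiboTag IPs and inputs of Huntington's disease (HD) mice through 10 of the 55401 genes counted: Kcnk1, Kcnk2, Kcnk3, Kcnk9 and Kcnk13 of the two-pore (K2P) family, and Kcnj2, Kcnj3, Kcnj4, Kcnj6 and Kcnj10 of the inward rectifier (Kir) family. They are named members of those families, chosen by symbol and matched through their Ensembl identifiers. For each, the level by cell type comes first, then the HD effect in each IP and input group, with glial members set beside the others.

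HD mice carried the Hdh Q7/Q200 knock-in genotype and controls Hdh Q7/Q7, on the 129S4 background, at about 9 months of age. Mice were heterozygous for RiboTag, an HA-tagged ribosomal protein switched on by Gad2-, PV-, SST- or vGlut2-Cre, so an IP holds mRNA bound to ribosomes of the cells that expressed Cre and an input holds RNA of the whole homogenate. The study describes breeding, background and age for the Gad2, PV and vGlut2 lines and does not mention an SST line, for which they are assumed. Tissue came from 1 hemisphere per mouse, the cerebrum without olfactory bulb or the cerebellum. Duplicate PV IPs of a mouse were pooled. Control and HD libraries numbered 6 and 6 for cerebral Gad2 IPs, 6 and 5 for PV, 5 and 4 for SST, 6 and 6 for cerebral vGlut2, 6 and 6 for cerebellar Gad2, and 5 and 6 for cerebellar vGlut2. Inputs numbered 3 and 3 per line and region, except 4 and 3 for SST and 4 and 4 for cerebellar vGlut2. Together these are 106 libraries of 45 mice, 67 IPs and 39 inputs, and 3 of the HD IPs are re-sequenced. Reads assigned per library ran from 21905221 to 107753586, median 35866725.5. Cerebral and cerebellar libraries of the Gad2 and vGlut2 lines came largely from the same animals, so those regional groups are not independent mice. Identifiers of SST control mice carry the prefix BR or Z (Z56 to Z59), and those of HD SST mice carry BR alone.

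K2P channels pass a leak current that holds neurons and glia near the potassium equilibrium potential. Kir channels conduct best near that potential, and those of the Kir3 group open when G protein coupled receptors release Gβγ. Kir4.1 of astrocytes takes up potassium released by firing neurons, and medium spiny neurons of the striatum, the cells most affected in HD, owe much of their quiet resting state to Kir2 channels.

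Each IP was enriched for a marker of its targeted class, with Gad1 read for the Gad2 IPs. Against inputs, the log2 ratio of Pvalb was 2.38 (SE 0.139) in PV IPs, of Sst 2.45 (SE 0.173) in SST IPs, of Gad1 2.12 and 2.03 in cerebral and cerebellar Gad2 IPs, and of Slc17a6 0.97 and 1.52 in cerebral and cerebellar vGlut2 IPs. Slc17a6 was also higher than in inputs in PV and SST IPs (1.20 and 1.12), so it did not set cerebral vGlut2 IPs apart, and the reason was not tested. In control IPs the summed level of 10 astrocyte genes was 1657 (PV) and 2277 CPM (SST), against 714 in cerebral Gad2 and 765 in cerebral vGlut2. Glial members are therefore read below beside glial marker genes of the same libraries. In bulk samples of this kind, fewer cells of a type and less RNA per cell cannot be told apart.

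Some libraries stood apart. The cerebellar HD inputs of the vGlut2 line had TMM factors of 0.892 to 0.917 against 1.03 to 1.12 in their controls, and HD results of cerebellar inputs below are also given line by line. Single TMM factors reached down to 0.802 in control cerebellar Gad2 IPs and 0.817 in HD cerebral vGlut2 IPs. HD PV IP replicate 3 held 4429 CPM of Purkinje cell genes against 586 to 734 in the other HD PV IPs, and 570 CPM of granule cell genes against 244 to 298. Without it Kcnk13 changed by −0.87 and Kcnj10 by −0.74 in PV IPs, compared with −0.92 and −0.80 below. Control PV IP replicate 2 held 1961 CPM of Purkinje cell genes against 606 to 988 in the other controls, and 362 CPM of granule cell genes against 246 to 289. Without that control library Kcnk13 changed by −0.95 and Kcnj10 by −0.85. Kcnk3 lies 4.14 Mb from Htt on chromosome 5, so for it DNA that travels with the HD allele cannot be told apart from the repeat. Antisense gene Gm9899 overlaps Kcnk3, with a mean count of 946, and A430027H14Rik overlaps Kcnk2, with 40.1; libraries were stranded. The pseudogene Pdcd5-ps overlaps Kcnk2 on the same strand with a mean count of 31.3.

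**Figure D1:**
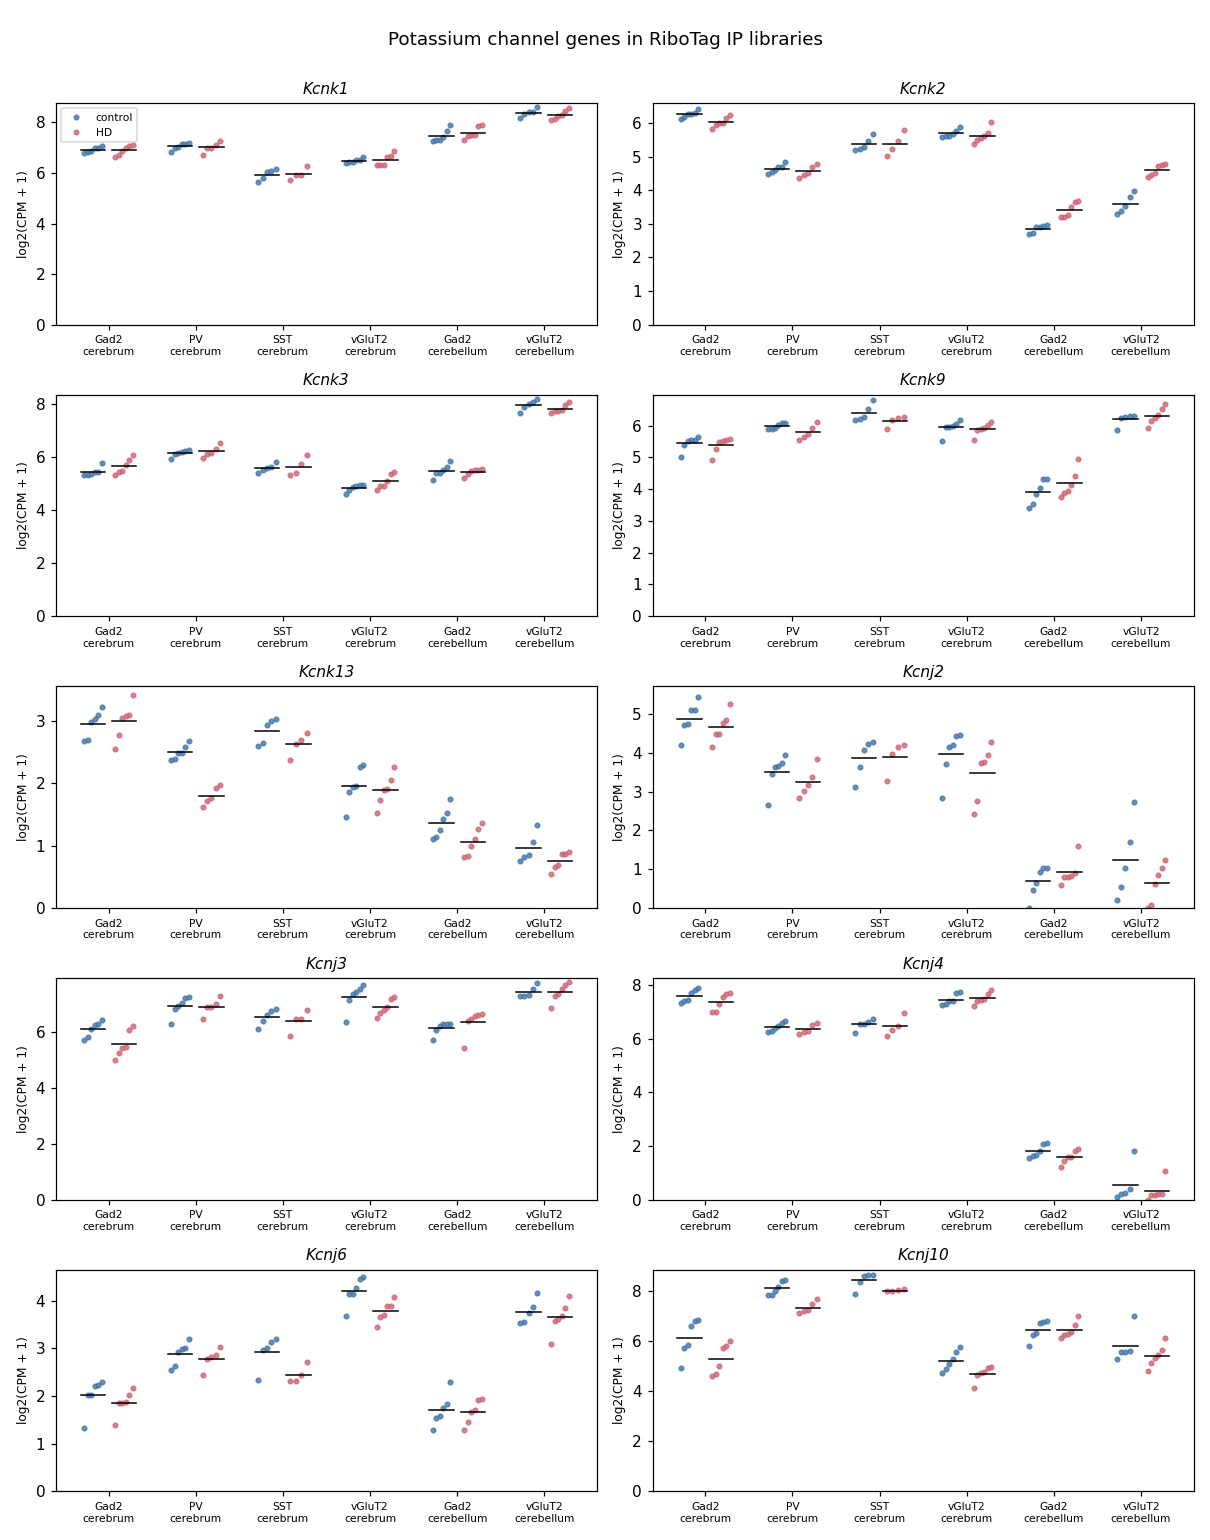
Level of each channel gene in every IP library, as log2(CPM + 1), controls in blue and HD in red. Bars mark group means.

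Kcnk1 (ENSMUSG00000033998, GRCm38 chr8:125995170-126030685) encodes the weakly conducting leak channel TWIK1. Mean control levels were 336 ± 38.7 CPM (SD, n = 5) in cerebellar vGlut2 IPs, 179 ± 33.2 (n = 6) in cerebellar Gad2, 132 ± 12.3 (n = 6) in PV, 121 ± 9.41 (n = 6) in cerebral Gad2, 88.8 ± 5.72 (n = 6) in cerebral vGlut2 and 60.8 ± 8.96 (n = 5) in SST IPs. PV and cerebral Gad2 values overlapped and no other neighbours in that order did, so Kcnk1 orders these 6 cell classes almost completely. PV and SST interneurons differed most clearly within the cerebrum: PV IPs read 112, 134 and 143 CPM (lowest, median, highest) and SST IPs 48.8, 54.3, 64.5, 66.0 and 70.5, a log2 difference of 1.11 (SE 0.112), adjusted p 1.23e-05 by edgeR's quasi-likelihood test, Benjamini-Hochberg adjusted, with 6 of 6 PV libraries above every SST library.

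Kcnk3 (ENSMUSG00000049265, chr5:30588170-30625271) and Kcnk9 (ENSMUSG00000036760, chr15:72501089-72546340) encode the acid-sensitive channels TASK1 and TASK3, which carry the standing leak current of cerebellar granule cells. In control libraries Kcnk3 averaged 247 ± 32.5 CPM in cerebellar vGlut2 IPs, 69.8 ± 5.32 in PV, 47.2 ± 5.11 in SST, 44.1 ± 7.85 in cerebellar Gad2, 42.8 ± 5.59 in cerebral Gad2 and 27.5 ± 2.66 in cerebral vGlut2 IPs. Kcnk9 averaged 84.4 ± 16.6 in SST, 72.9 ± 8.86 in cerebellar vGlut2, 62.4 ± 3.90 in PV, 60.9 ± 9.05 in cerebral vGlut2, 42.8 ± 6.23 in cerebral Gad2 and 14.5 ± 4.01 in cerebellar Gad2 IPs. SST, cerebellar Gad2 and cerebral Gad2 libraries overlapped for Kcnk3. For Kcnk9, cerebellar Gad2 IPs alone lay below their neighbour without overlap. Between the cerebellar classes, Kcnk3 read 200, 233, 252, 265 and 285 CPM in vGlut2 against 33.7, 42.7 and 57.1 in Gad2 IPs, log2 2.46 (SE 0.145), adjusted p 2.74e-09, and Kcnk9 57.3, 74.7, 76.1, 78.0 and 78.5 against 9.52, 14.4 and 19.0, log2 2.30 (SE 0.189), adjusted p 8.55e-08, by edgeR's quasi-likelihood test, Benjamini-Hochberg adjusted; all 5 vGlut2 libraries exceeded every Gad2 library for each gene. The acid-sensitive pair thus marks excitatory cells in the cerebellum, where granule cells are the main vGlut2-lineage population. In the cerebrum they parted, Kcnk9 being higher (0.49) and Kcnk3 lower (−0.65) in vGlut2 than in Gad2 IPs.

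Kcnk2 (ENSMUSG00000037624, chr1:189207930-189402273) encodes TREK1, a leak channel opened by membrane stretch, fatty acids and volatile anaesthetics. Its control means were 75.8 ± 5.52 CPM in cerebral Gad2, 50.7 ± 3.99 in cerebral vGlut2, 40.8 ± 6.23 in SST, 24.0 ± 2.09 in PV, 11.3 ± 2.51 in cerebellar vGlut2 and 6.25 ± 0.523 in cerebellar Gad2 IPs, with overlap only between cerebral vGlut2 and SST among neighbours. Kcnk2 thus separates cerebral from cerebellar classes, and within the cerebrum places PV interneurons lowest.

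Kcnj4 (ENSMUSG00000044216, chr15:79483714-79505241) and Kcnj2 (ENSMUSG00000041695, chr11:111066164-111076821) encode the strong rectifiers Kir2.3 and Kir2.1. Kcnj4 averaged 194 ± 31.5 CPM in cerebral Gad2, 178 ± 25.2 in cerebral vGlut2, 92.7 ± 12.1 in SST, 86.8 ± 10.5 in PV, 2.55 ± 0.592 in cerebellar Gad2, then 0.663 ± 1.06 in cerebellar vGlut2 IPs; the first pair overlapped, the middle pair overlapped and the last pair overlapped, with gaps between pairs. Kcnj2 averaged 29.8 ± 8.77, 15.7 ± 5.65, 14.2 ± 4.53, 10.8 ± 3.05, 0.655 ± 0.418 and 1.92 ± 2.25 CPM in the same 6 classes and every neighbour overlapped in order of level. The Kir2 pair is in effect a cerebral pair in these data. Per kb of union exon Kcnj4 exceeded Kcnj2 in each cerebral class, for example by 90.3 to 5.47 CPM per kb in Gad2 IPs.

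Kcnj3 (ENSMUSG00000026824, chr2:55435970-55598145) and Kcnj6 (ENSMUSG00000043301, chr16:94748636-94997701) encode the G protein gated subunits GIRK1 and GIRK2. Kcnj3 was spread across classes, at 177 ± 26.2 CPM in cerebellar vGlut2, 159 ± 44.0 in cerebral vGlut2, 125 ± 28.0 in PV, 94.1 ± 18.2 in SST, 71.2 ± 10.4 in cerebellar Gad2 and 69.7 ± 13.4 in cerebral Gad2 control IPs, each neighbour overlapping. Kcnj6 was 17.6 ± 3.56 in cerebral vGlut2, 12.8 ± 2.59 in cerebellar vGlut2, 6.76 ± 1.60 in SST, 6.46 ± 1.25 in PV, 3.14 ± 0.873 in cerebral Gad2 and 2.36 ± 0.856 in cerebellar Gad2 IPs, again 3 overlapping pairs with gaps between them. The contrast of cerebral vGlut2 (11.7, 17.5 and 21.5 CPM, lowest, median, highest) with cerebral Gad2 IPs (1.49, 3.34 and 3.91) was log2 2.47 (SE 0.207), adjusted p 2.2e-07 by edgeR's quasi-likelihood test, Benjamini-Hochberg adjusted, 6 of 6 libraries above every Gad2 library. Both GIRK subunits were thus higher in vGlut2 than in Gad2 IPs of either region.

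Kcnj10 (ENSMUSG00000044708, chr1:172341210-172374085) encodes Kir4.1 of astrocytes and oligodendrocytes, and Kcnk13 (ENSMUSG00000045404, chr12:99964499-100062682) encodes THIK1, the tonic potassium channel of microglia. Kcnj10 averaged 345 ± 69.6 CPM in SST and 276 ± 50.7 in PV IPs, with overlap, and 87.8 ± 22.6, 75.8 ± 34.7, 60.9 ± 37.1 and 37.0 ± 10.5 in cerebellar Gad2, cerebral Gad2, cerebellar vGlut2 and cerebral vGlut2 IPs, also overlapping. Kcnk13 stood at 6.79 ± 1.15 in cerebral Gad2, 6.23 ± 1.01 in SST, 4.68 ± 0.467 in PV, 2.95 ± 0.788 in cerebral vGlut2, 1.61 ± 0.465 in cerebellar Gad2, then 0.967 ± 0.338 in cerebellar vGlut2 IPs; the 3 GABAergic cerebral groups lay above the other 3 without overlap. Summed microglial genes averaged 179 CPM in cerebral Gad2, 146 in SST, 125 in PV, 122 in cerebellar Gad2, 47.0 in cerebral vGlut2 and 37.1 in cerebellar vGlut2 IPs. Summed oligodendrocyte genes averaged 3647 CPM in SST and 2236 in PV IPs. In cerebellar Gad2, cerebral Gad2, cerebellar vGlut2 and cerebral vGlut2 IPs they averaged 1195, 981, 789 and 580 CPM. Kcnj10 thus was highest in the groups with the most astrocyte and the most oligodendrocyte RNA. Kcnk13 shares its 3 highest groups and its lowest with microglial genes.

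Per kb of union exon, the scale on which genes can be compared, Kcnj4 led in cerebral Gad2 (90.3 CPM per kb) and cerebral vGlut2 IPs (82.6), Kcnk1 led in PV (58.9), cerebellar Gad2 (80.0) and cerebellar vGlut2 IPs (150), and Kcnj10 led in SST IPs (63.8). Second places went to Kcnk1 in cerebral Gad2 (54.1), Kcnj10 in PV (51.1) and Kcnj4 in SST IPs (43.1). Of 21 further K2P, Kir and Kir-partner genes, Kcnj9 was the second most abundant in cerebral vGlut2 (60.8), cerebellar Gad2 (56.6) and cerebellar vGlut2 IPs (70.5), ahead of every member but the leading one. With the longest transcript as length, Kcnj9 passed Kcnj10 in PV IPs (51.3) and Kcnj4 in SST IPs (46.8).

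Tested class against class in control libraries, members were called widely, as was the genome. Cerebral vGlut2 against Gad2 IPs gave 3 members up and 6 down of 10, where 29.8% of genes were called, Kcnj4 being the exception. PV against cerebral Gad2 IPs gave 6 up and 4 down, with 58% of genes called. PV against SST IPs gave 2 up (Kcnk1, Kcnk3) and 2 down (Kcnk2, Kcnk9), with 18.2% of genes called. Cerebellar vGlut2 against Gad2 IPs gave 6 up and 1 down (Kcnj4), with 56.4% called. Each share of members called was above the share of all genes, by the most for cerebral vGlut2 against Gad2. Between PV and SST interneurons the called members are 4 of 5 K2P genes, Kcnk13 not reaching the threshold (−0.41, SE 0.141) but called by DESeq2, and 0 of 5 Kir genes. Uncalled Kir differences were as large as that of Kcnk13 for Kcnj3 (0.41, SE 0.184) and near it for Kcnj2 (−0.39, SE 0.256) and Kcnj10 (−0.33, SE 0.153). Whether the families differ was not tested.

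Between regions, 4 members were lower in the cerebellum in Gad2 IPs, vGlut2 IPs and inputs alike: Kcnj4 (log2 −6.26, −8.03 and −7.01), Kcnj2 (−5.45, −3.05 and −1.65), Kcnk2 (−3.61, −2.21 and −1.48) and Kcnk13 (−2.08, −1.65 and −0.84). In all, Gad2 IPs gave 1 member up and 5 down where 51.1% of genes were called, vGlut2 IPs 2 up and 5 down where 63.2% were, and inputs 3 up and 4 down where 58.2% were, so the share of members is near that of the genome. Kcnk1 was higher in the cerebellum in all 3 (0.55, 1.86 and 0.76), and Kcnk3 in vGlut2 IPs and inputs (3.11 and 1.91) but not in Gad2 IPs (0.04). For Kcnj4, control values were 161, 190 and 235 CPM (lowest, median, highest) in cerebral and 1.92, 2.38 and 3.31 in cerebellar Gad2 IPs, a contrast with SE 0.182 and adjusted p 3.83e-13 by edgeR's quasi-likelihood test, Benjamini-Hochberg adjusted, all 6 cerebellar below all 6 cerebral. These are the sharpest regional differences of any member.

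Promoters of the 4 members lower in the cerebellum throughout are shown because they move together, as RefSeq gives them for GRCm38.p6, 250 bases before to 50 after the start. Capitals mark GGGCGG (GC box) and CCAAT on either strand. These letters occur in 35.7% and 37.4% of 32851 promoters, and TATAAA, found in none of the 4, in 13.6%. Promoters were present for 8 of 10 members, and Kcnk3 and Kcnk9 had no entry. The Kcnj4 window (chr15:79505192-79505491, minus strand) is 76% G or C with 41 CG pairs and 4 GC boxes, the Kcnj2 window (chr11:111065914-111066213, plus strand) 66.7% with 18 CG, 2 GC boxes and 1 CCAAT, and the richest of 4 Kcnk2 windows (chr1:189343658-189343957, minus strand) 74.7% with 33 CG, 1 GC box and 1 CCAAT. The Kcnk13 window (chr12:99964249-99964548, plus strand) has 52.7%, the median of all promoters, 9 CG and none of these letters.
Kcnj4: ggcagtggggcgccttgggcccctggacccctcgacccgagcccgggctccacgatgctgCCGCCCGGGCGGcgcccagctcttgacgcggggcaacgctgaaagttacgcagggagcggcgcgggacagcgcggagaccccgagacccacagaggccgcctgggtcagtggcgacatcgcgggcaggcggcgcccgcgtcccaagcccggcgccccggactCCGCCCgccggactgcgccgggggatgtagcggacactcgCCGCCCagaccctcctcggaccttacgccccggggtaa
Kcnj2: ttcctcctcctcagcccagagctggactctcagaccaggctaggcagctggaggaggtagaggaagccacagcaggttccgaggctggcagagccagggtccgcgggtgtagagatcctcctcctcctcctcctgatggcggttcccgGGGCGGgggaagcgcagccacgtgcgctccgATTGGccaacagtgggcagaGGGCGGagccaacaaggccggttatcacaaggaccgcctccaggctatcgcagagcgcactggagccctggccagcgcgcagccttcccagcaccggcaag
Kcnk2: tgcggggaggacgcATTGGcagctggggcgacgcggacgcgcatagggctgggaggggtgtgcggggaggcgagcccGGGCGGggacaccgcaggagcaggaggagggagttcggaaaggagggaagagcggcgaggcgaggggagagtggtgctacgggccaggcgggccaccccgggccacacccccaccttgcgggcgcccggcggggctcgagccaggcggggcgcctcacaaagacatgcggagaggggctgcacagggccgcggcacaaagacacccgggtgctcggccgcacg
Kcnk13: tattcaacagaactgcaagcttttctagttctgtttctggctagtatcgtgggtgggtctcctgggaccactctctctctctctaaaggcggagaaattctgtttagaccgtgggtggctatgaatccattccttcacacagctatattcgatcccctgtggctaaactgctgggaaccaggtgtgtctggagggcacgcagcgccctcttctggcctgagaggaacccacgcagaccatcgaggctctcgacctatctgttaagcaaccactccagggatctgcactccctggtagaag

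Against inputs, members were called in most IPs, and so were most genes. Called up and down were 3 and 4 of 10 in cerebral Gad2 IPs (63.5% of genes called), 4 and 5 in PV (73.2%), 3 and 4 in SST (65.2%), 3 and 4 in cerebral vGlut2 (63.6%), 1 and 8 in cerebellar Gad2 (67.4%), then 5 and 5 in cerebellar vGlut2 IPs (68.3%). Kcnk13 was depleted in all 6, at log2 −0.62, −1.50, −0.75, −1.95, −2.14 and −2.93 in that order. The 10 microglial genes had medians of −1.16, −2.50, −1.85, −4.11, −1.07 and −3.70, so Kcnk13 was depleted less than they were in 5 classes and more in cerebellar Gad2 IPs. Kcnj10 fell to −2.35, −3.30, −1.73 and −2.60 in cerebral Gad2, cerebral vGlut2, cerebellar Gad2 and cerebellar vGlut2 IPs, but stood near input level in PV (−0.31) and SST IPs (0.21, not called). The median ratio of 10 astrocyte genes was −1.86 in PV and −1.48 in SST IPs, so Kcnj10 was kept there more than astrocyte markers were. Summed oligodendrocyte genes averaged 2236 and 3647 CPM in control PV and SST IPs, against 6432 and 6168 in control inputs of those lines. With each of 4 of 6 alternatives the small PV depletion of Kcnj10 was no longer called. IPs and inputs came in part from the same mice, and with the mouse as a block (12 libraries, 14 for cerebellar vGlut2) 3 of 7 members stayed called in cerebral vGlut2 IPs (Kcnk1, Kcnk3, Kcnj4 and Kcnj6 lost) and 6 of 10 in cerebellar vGlut2 IPs (Kcnk2, Kcnk3, Kcnj2 and Kcnj4 lost). Kcnk1 and Kcnj10 in PV and Kcnk3 in SST IPs were also lost, while Kcnk13 stayed called in all 6.

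The other 8 members had a median log2 ratio to input of 0.13 in cerebral Gad2, 0.09 in PV, 0.22 in SST, 0.13 in cerebral vGlut2, 0.42 in cerebellar vGlut2 and −1.38 in cerebellar Gad2 IPs, against −1.48, −0.90, −0.27, −2.62, −2.77 and −1.94 for the 2 glial members. Kcnj2 (1.25, SE 0.234, adjusted p 3.03e-05) and Kcnk2 (0.65, SE 0.0556, adjusted p 1.13e-11) were enriched in cerebral Gad2 IPs by edgeR's quasi-likelihood test, Benjamini-Hochberg adjusted. Kcnj3 was enriched in PV (1.05), SST (0.64), cerebral vGlut2 (1.03) and cerebellar vGlut2 IPs (0.80). In cerebellar Gad2 IPs only Kcnj4 was enriched among members (1.15, SE 0.21), at 2.55 CPM. Medians near 0 hide members that were called depleted: Kcnj6 (−1.82) and Kcnk9 (−0.34) in cerebral Gad2, Kcnk2 (−0.80), Kcnj4 (−0.61) and Kcnj6 (−0.61) in PV, Kcnk1 (−0.75), Kcnj6 (−0.71) and Kcnj4 (−0.47) in SST, Kcnk1 (−0.40) and Kcnk3 (−0.47) in cerebral vGlut2, and Kcnk2 (−0.25), Kcnj2 (−1.24) and Kcnj4 (−1.32) in cerebellar vGlut2 IPs. Each of these 8 was thus called enriched in at least 1 class, and all but Kcnj3 depleted in another, whereas neither glial member was called enriched in any.

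**Figure D2:**
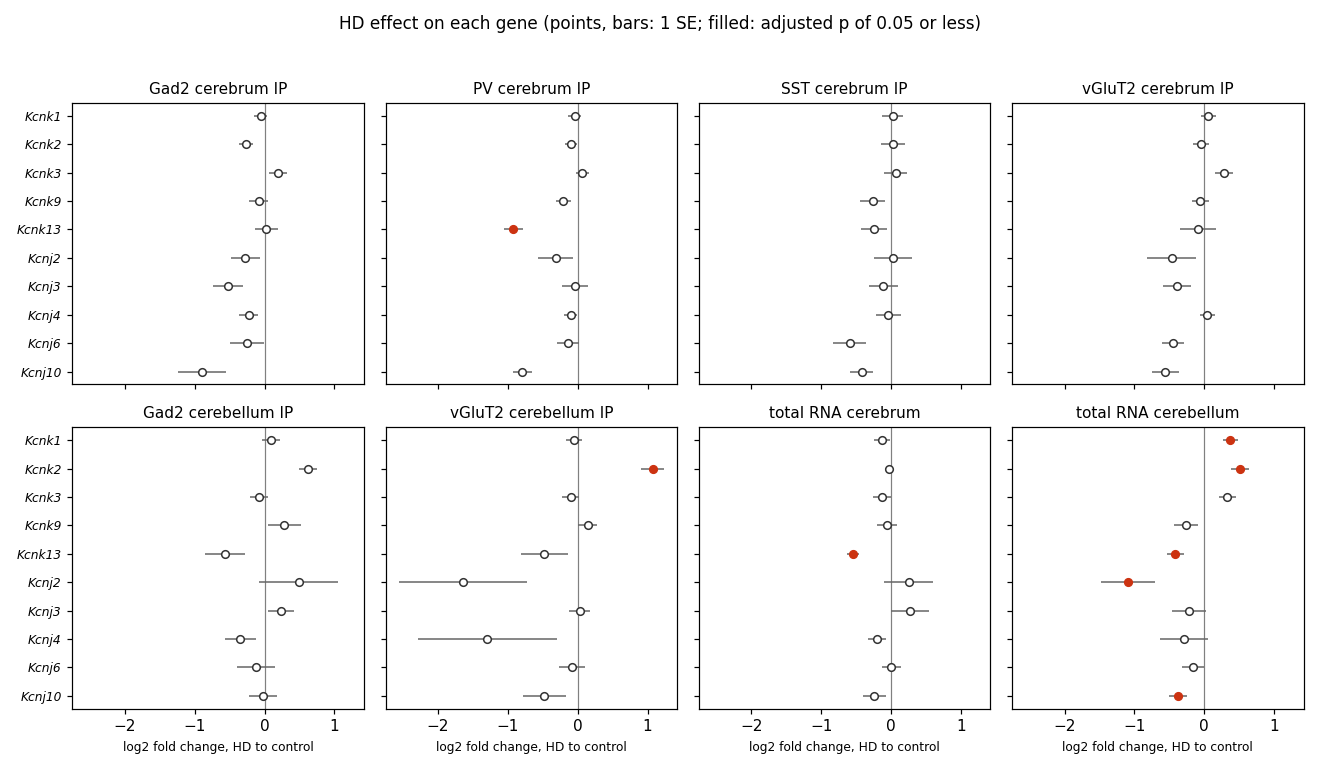
HD effect on each channel gene as log2 fold change with 1 SE, in 6 IP and 2 input comparisons. Filled red points passed an adjusted p of 0.05.

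In HD, Kcnk2 rose in cerebellar vGlut2 IPs. Control libraries read 8.76, 9.48, 10.6, 13 and 14.8 CPM and HD libraries 20.1, 23.5 and 26.7 (lowest, median, highest), with no overlap: 6 of 6 HD libraries exceeded all controls. The log2 fold change was 1.07 (SE 0.161), adjusted p 0.0032 by edgeR's quasi-likelihood test, Benjamini-Hochberg adjusted. It held in 7 of 7 alternatives and 11 of 11 refits leaving out a library. Kcnk2 is the 1 member called of 10 in a comparison where 2.11% of genes were, and 3 members had positive and 7 negative fold changes, median −0.09 against −0.01 over all genes. Beside it, Neurod1 fell (−0.87, adjusted p 0.00914, same test), 5 of 6 granule cell genes were lower (median −0.41, 1 called), and Purkinje cell genes had a median of −0.01. Astrocyte genes, of which none was called, had a median of −0.09.

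Cerebellar Gad2 IPs showed the same direction for Kcnk2, from 5.55, 6.47 and 6.79 CPM in controls to 8.22, 9.43 and 11.7 in HD (lowest, median, highest), again without overlap. The log2 fold change of 0.62 (SE 0.134, p 0.000335) missed the threshold over all genes at adjusted p 0.491 by edgeR's quasi-likelihood test, Benjamini-Hochberg adjusted, and DESeq2 called it. Of 10 members, 0 were called there by edgeR, 1 had p below 0.05 and 1 was called by DESeq2, where 0.0142% of genes were called. The member median was 0.03 against 0.00. Whether the HD effect on Kcnk2 differs between the 2 cerebellar classes was tested and not called (log2 0.42, SE 0.203, adjusted p 0.705). Kcnk2 thus ran higher without overlap in vGlut2 and Gad2 cerebellar IPs, called in the first. Its control means in these IPs, 11.3 and 6.25 CPM, were below those of inputs of the same lines, 15.0 and 14.9. Which cells the rise comes from was not tested.

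The cerebrum showed no such rise. Kcnk2 changed by log2 −0.05 in cerebral vGlut2, −0.26 in cerebral Gad2, −0.10 in PV and 0.02 in SST IPs, none called. The effect in cerebellar vGlut2 IPs exceeded that in cerebral vGlut2 IPs by log2 1.13 (SE 0.194), adjusted p 0.00632 by edgeR's quasi-likelihood test, Benjamini-Hochberg adjusted, with 6 of 6 cerebellar and 2 of 6 cerebral HD libraries above their control median. Only Kcnk2 of 10 members was called in that interaction, in which 0.323% of genes were. For Gad2 IPs the regional difference was 0.88 (SE 0.152, p 5.54e-06), adjusted p 0.0802 in the same test and called by DESeq2; 0 members and 0% of genes were called by edgeR, 3 members at p below 0.05 and 1 by DESeq2, genome-wide 777 and 21. Between vGlut2 and Gad2 IPs 0 members were called in the cerebrum (0% of genes; 0 members at p below 0.05 and 0 by DESeq2) and 0 in the cerebellum (0.107% of genes; 0 members at p below 0.05 and 0 by DESeq2). In control IPs Kcnk2 was lower in both cerebellar classes than in every cerebral class, and its called rise in IPs lay in a cerebellar class.

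Kcnk13 fell in PV IPs. Controls read 4.18, 4.62 and 5.41 CPM (lowest, median, highest) and HD libraries 2.07, 2.30, 2.41, 2.79 and 2.91, so 5 of 5 lay below all controls. The log2 fold change was −0.92 (SE 0.139), adjusted p 0.043 by edgeR's quasi-likelihood test, Benjamini-Hochberg adjusted. This call is fragile, while the size is not: leaving out any 1 of the 11 libraries ended it (adjusted p up to 0.179), as did 4 of 8 alternatives, namely no filter on low counts, replicate number as a block, dropping the re-sequenced library and 1 fit of all IPs, but the fold change stayed between −0.99 and −0.87. Genome-wide, leaving out a library gave 0 to 4 called genes, against 5 in the main fit. Kcnk13 is 1 of 10 members called where 0.034% of genes were, and 9 of 10 members had negative fold changes, median −0.12 against 0.00.

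Kcnj10 moved the same way in PV IPs, from 223, 269 and 340 CPM in controls (lowest, median, highest) to 136, 143, 147, 176 and 203 in HD, without overlap. The log2 fold change of −0.80 (SE 0.136, p 5.15e-05) had adjusted p 0.0809 by edgeR's quasi-likelihood test, Benjamini-Hochberg adjusted, and DESeq2 called it. Glial marker genes of these libraries also ran lower without being called: 10 of 10 astrocyte genes (median −0.30, summed mean 1657 to 1115 CPM), 9 of 10 oligodendrocyte genes (median −0.46) and 8 of 10 microglial genes (median −0.15). Most of the fall in the astrocyte sum was Slc1a2, which went from 1078 to 641 CPM. Per 1000 CPM of astrocyte genes, Kcnj10 read 133 to 213 in control and 125 to 172 in HD PV IPs, largely overlapping, whereas Kcnk13 per 1000 CPM of microglial genes read 35.4 to 39.8 and 17.5 to 28.3, without overlap. Per 1000 CPM of astrocyte genes Kcnk13 read 2.48 to 3 in control (median 2.88) and 1.66 to 3.02 in HD PV IPs (median 2.24), overlapping. Kcnk13 thus separates the groups fully when set against microglial genes. Set against astrocyte genes the groups overlap, with the HD median below every control. How much of either change is a smaller glial carry-over in the HD IPs was not tested.

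Kcnj10 was lower in HD in the other cerebral IPs too, none called: log2 −0.90 (SE 0.344) in cerebral Gad2, −0.56 (SE 0.191) in cerebral vGlut2 and −0.42 (SE 0.169) in SST IPs. All 6 HD libraries lay below the control median in cerebral Gad2 and vGlut2 IPs and all 4 in SST IPs. Summed glial marker genes of these libraries ran lower with it. Astrocyte means went from 714 to 505, 765 to 565 and 2277 to 1903 CPM in cerebral Gad2, cerebral vGlut2 and SST IPs. Oligodendrocyte means went from 981 to 742, 580 to 425 and 3647 to 3024 in the same order. Slc1a2, the most abundant astrocyte gene, alone went from 357 to 192, 515 to 367 and 1516 to 1031 CPM. In SST IPs its fall exceeded that of the whole astrocyte sum, so the other astrocyte genes together did not run lower. In cerebellar Gad2 and vGlut2 IPs Kcnj10 changed by −0.03 and −0.48, the latter resting on 1 control library (replicate 2) at 127 CPM against 37.6 to 47.7 in the others. Without that library it was −0.03 (SE 0.207). Kcnk13 changed by 0.03 in cerebral Gad2, −0.09 in cerebral vGlut2 and −0.25 in SST IPs. There 2 of 6, 4 of 6 and 4 of 4 HD libraries lay below the control median. In cerebellar Gad2 and vGlut2 IPs Kcnk13 changed by −0.57 and −0.48. In cerebral Gad2 IPs 10 of 10 microglial genes ran higher in HD (median 0.63), with Kcnk13 level. Lower Kcnj10 beside lower astrocyte and oligodendrocyte sums is thus seen in each cerebral IP group, while lower Kcnk13 of similar size is limited to PV IPs there. Whether the HD effect in PV IPs differs from that in other IPs was not tested.

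No member was called in the remaining IPs. In cerebral Gad2 IPs 0 of 10 were called by edgeR (0.0279% of genes), 3 had p below 0.05 (Kcnk2, Kcnj3, Kcnj10) and DESeq2 called 0, with 8 of 10 negative and a median of −0.24 against −0.01. SST IPs had 0 called by edgeR (0% of genes; 2 members with p below 0.05, Kcnj6 and Kcnj10; 0 by DESeq2), median −0.08 against 0.01. Cerebral vGlut2 IPs had 0 by edgeR (0.00697% of genes; 3 with p below 0.05, Kcnk3, Kcnj6 and Kcnj10; 0 by DESeq2), median −0.07 against −0.02. With so few genes called anywhere in these groups, 0 of 10 is what the genome-wide share gives. Kcnj3 at −0.52 (SE 0.219) in cerebral Gad2 and Kcnj6 at −0.45 (SE 0.157) in cerebral vGlut2 and −0.59 (SE 0.234) in SST IPs were the largest uncalled changes of GIRK subunits.

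Striatal projection neuron genes give the scale for the Kir2 pair in cerebral Gad2 IPs. Those 10 genes had a median log2 fold change of −0.55, while Kcnj4 changed by −0.23 (SE 0.14) and Kcnj2 by −0.27 (SE 0.214), neither called. Kcnj4 read 161, 190 and 235 CPM in controls and 127, 174 and 211 in HD libraries (lowest, median, highest), overlapping, with 3 of 6 HD libraries below all controls. Whether the Kir2 pair differs from the projection neuron genes was not tested. In cerebellar vGlut2 IPs the fold changes of Kcnj2 (−1.65, SE 0.917) and Kcnj4 (−1.29, SE 0.996) rest on levels near 0, with 1 control library at 5.68 and 2.56 CPM.

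**Figure D3:**
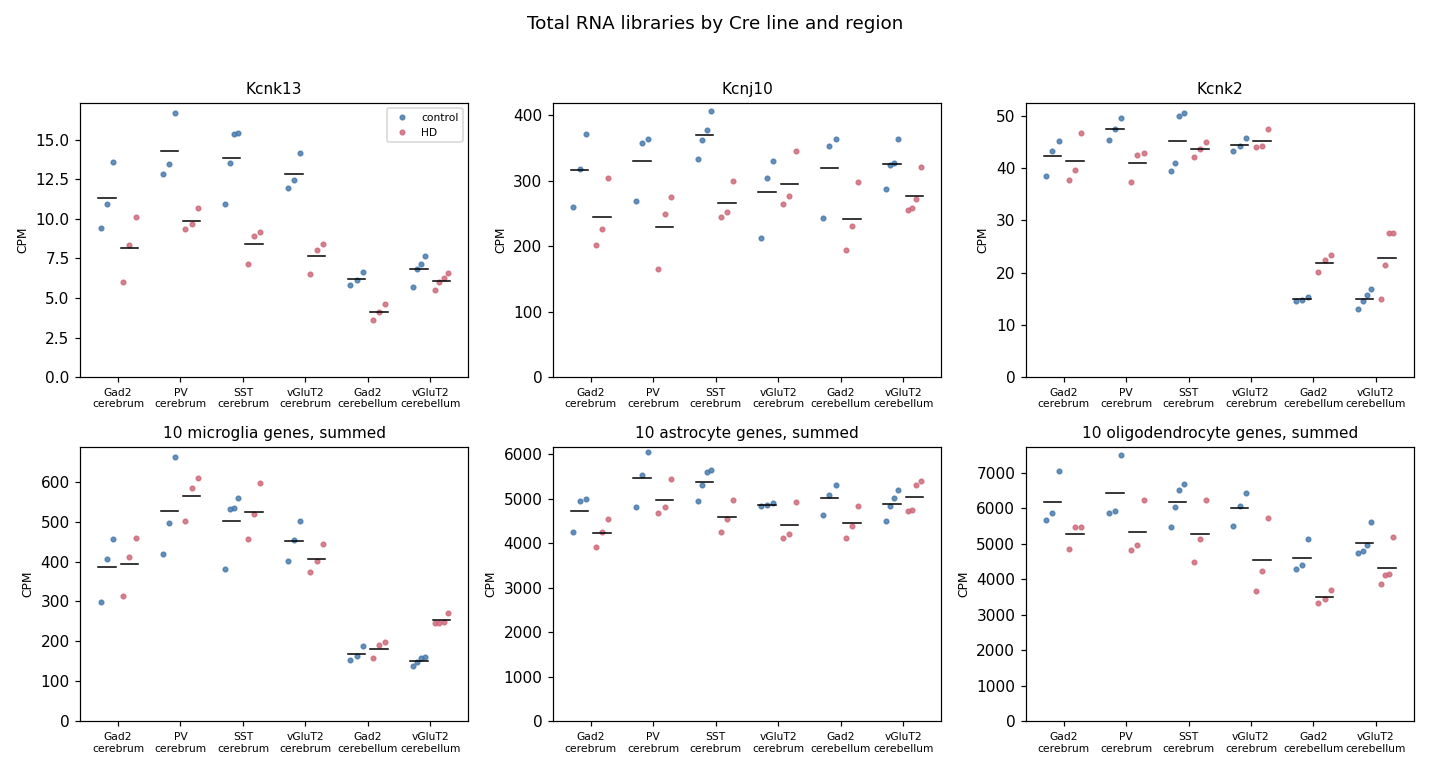
Kcnk13, Kcnj10 and Kcnk2 in each input library by line, with summed CPM of 10 microglial, 10 astrocyte and 10 oligodendrocyte genes. Controls are blue and HD red.

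In cerebral inputs Kcnk13 fell. Gad2-line controls read 9.40, 10.9 and 13.6 CPM against 5.99, 8.36 and 10.1 in HD, PV-line controls 12.8, 13.5 and 16.7 against 9.36, 9.65 and 10.7, and vGlut2-line controls 11.9, 12.5 and 14.2 against 6.52, 8.04 and 8.41. SST-line inputs, outside this fit, read 11, 13.6, 15.4 and 15.4 against 7.17, 8.95 and 9.19. Control and HD values overlapped in the Gad2 line alone, whose same-numbered libraries deviate together, and there each HD library lay below its same-numbered control (9.40 to 5.99, 10.9 to 8.36 and 13.6 to 10.1). Over the Gad2, PV and vGlut2 lines the log2 fold change was −0.54 (SE 0.0899), adjusted p 0.021 by edgeR's quasi-likelihood test, Benjamini-Hochberg adjusted, with 9 of 9 HD libraries below the control median of their line. Kcnk13 is 1 of 10 members called where 0.141% of genes were.

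That call too depends on single libraries, and the direction does not. It ended in each line alone, where log2 was −0.48, −0.50 and −0.68 in the Gad2, PV and vGlut2 lines and −0.71 in the SST line (for the Gad2 line with the replicate number as a block, a fit chosen after seeing the data, −0.48, SE 0.109, p 0.00149 and still uncalled), and on leaving out 12 of 18 libraries: control Gad2 3, PV 3 and vGlut2 1, 2 and 3, and HD Gad2 1 and 2, PV 2 and 3 and vGlut2 1, 2 and 3. Fold changes in those refits ran from −0.58 to −0.51, with adjusted p up to 0.0772. Genome-wide, leaving out a library gave 4 to 43 called genes, against 21 in the main fit. Microglial marker genes had a median of 0.01 with 0 of 10 called. Kcnk13 per 1000 CPM of those genes averaged 27.6 to 29.4 in control groups and 16.5 to 20.5 in HD groups of the 4 cerebral lines. Kcnj10 changed by −0.24 there, uncalled. Summed astrocyte means were lower in HD inputs of every cerebral line: 4732 to 4235 CPM in Gad2 and 5473 to 4985 in PV. In vGlut2 they went from 4873 to 4418 and in SST from 5381 to 4589. The median of astrocyte genes was −0.04 and that of oligodendrocyte genes −0.24, with 8 of 10 negative and lower summed means in HD inputs of every line (6186 to 5263 CPM in Gad2, 6432 to 5337 in PV, 5999 to 4547 in vGlut2, 6168 to 5273 in SST). By line Kcnj10 changed by −0.36 in Gad2, −0.50 in PV and −0.48 in SST but 0.13 in vGlut2, the line whose oligodendrocyte sum ran lowest against its controls. In the vGlut2 line microglial genes ran slightly lower (median −0.11, 6 of 10 negative, summed mean 452 to 407 CPM), where Kcnk13 changed by −0.68.

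Cerebellar inputs gave 5 of 10 members called, Kcnk1 and Kcnk2 up and Kcnk13, Kcnj2 and Kcnj10 down, in a comparison where 24.5% of all genes were called. For Kcnk2, Gad2-line values rose from 14.5, 14.8 and 15.4 to 20.0, 22.4 and 23.3 CPM without overlap, and vGlut2-line values from 13.1, 14.5, 15.8 and 16.8 to 15.0, 21.4, 27.5 and 27.7, log2 0.51 (SE 0.128), adjusted p 0.0282 by edgeR's quasi-likelihood test, Benjamini-Hochberg adjusted. Kcnk13 went from 5.82, 6.16 and 6.62 to 3.64, 4.14 and 4.62 in the Gad2 line and from 5.68, 6.82, 7.18 and 7.63 to 5.49, 6, 6.26 and 6.56 in the vGlut2 line, log2 −0.42 (SE 0.118), adjusted p 0.0324, same test. Kcnj10 read 244, 353 and 364 against 195, 231 and 298, and 287, 323, 327 and 364 against 256, 258, 272 and 321, log2 −0.37 (SE 0.126), adjusted p 0.0448, same test. All 7 HD libraries lay below their line's control median for Kcnk13 and Kcnj10, and 6 of 7 above it for Kcnk2. Kcnk1 at 0.37 (SE 0.106, adjusted p 0.0323) and Kcnj2 at −1.09 (SE 0.383, adjusted p 0.0495) completed the calls, same test. For Kcnj2, 1 control input of the vGlut2 line (replicate 4) read 8.79 CPM against 1.70, 2.68 and 3.06 in the others, and without it the log2 fold change was −0.65 (adjusted p 0.0975).

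None of these 5 calls survives without the vGlut2 line. In the Gad2 line alone 0 of 10 members were called and 0% of genes, with 2 members (Kcnk2 and Kcnk13) at p below 0.05, and in the vGlut2 line alone 6 were, where 51.7% of genes were called: Kcnk1 (0.51), Kcnk3 (0.55), Kcnk9 (−0.56), Kcnj2 (−1.61), Kcnj3 (−0.59) and Kcnj10 (−0.36). Kcnk9 and Kcnj3 turned from negative to positive in the Gad2 line (0.13 and 0.27). Log2 fold changes of Kcnk2 (0.55 and 0.47 in the Gad2 and vGlut2 lines) and Kcnj10 (−0.40 and −0.36) were of like size in both, that of Kcnk13 was larger in the Gad2 line (−0.58 and −0.30), and that of Kcnk1 was larger in the vGlut2 line (0.19 and 0.51). Whether lines differ was tested by an interaction chosen after seeing the data, and 0 members were called by edgeR, 2 at p below 0.05 (Kcnk3 and Kcnk9) and 0 by DESeq2, with 1.64% of genes called. Kcnk2 thus ran higher in HD inputs of both lines and in IPs of both cerebellar classes, called over both lines and in vGlut2 IPs.

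Leaving out single libraries also ended calls in cerebellar inputs. All 5 ended without control Gad2 2, any 1 of control vGlut2 1 to 4, HD Gad2 2, or HD vGlut2 2, 3 or 4. In those refits calls fell over the whole genome, to between 96 and 302 genes from 3544. Genes with p below 0.05 numbered 5192 to 6010 there, against 6423 in the main fit. The loss is thus shared with most called genes and is not particular to these members. Without HD Gad2 1, Kcnk13, Kcnj2 and Kcnj10 were lost, without HD vGlut2 1 Kcnj2 and Kcnj10, and without control Gad2 1 Kcnj10. Kcnj2 and Kcnj10 were also uncalled with no filter on low counts and with all gene types. Marker genes differed by line. Microglial genes had a median of 0.45 over both lines with 6 of 10 called up, but 0.17 with 0 called in the Gad2 line (summed mean 168 to 182 CPM) against 0.67 with 6 called in the vGlut2 line (151 to 253). Kcnk13 per 1000 CPM of those genes averaged 37.2 in control and 23.0 in HD inputs of the Gad2 line, 45.0 and 24.0 in the vGlut2 line. Kcnj10 per 1000 CPM of astrocyte genes read 62.9 to 72.5 in control and 48.7 to 59.4 in HD inputs of the vGlut2 line, without overlap. In the Gad2 line it read 52.5 to 69.2 and 47.2 to 68.0, overlapping. The vGlut2-line ratio depends on Apoe, the most abundant astrocyte gene, which went from 1387 to 2309 CPM there. The whole astrocyte sum went from 4889 to 5047 CPM, so the other astrocyte genes together ran lower. Kcnj10 was not set against those genes alone. Astrocyte genes had medians of −0.03 over both lines (3 of 10 called down), −0.24 in the Gad2 and 0.04 in the vGlut2 line. Oligodendrocyte genes had −0.20 (1 called up, 4 down), −0.36 and −0.08, their summed mean going from 4610 to 3488 CPM in the Gad2 and from 5027 to 4326 in the vGlut2 line. In the vGlut2 line alone 4 oligodendrocyte genes were called up and 4 down. Purkinje cell genes had a median of −0.55 (3 of 6 called down), −0.27 in the Gad2 (0 called) and −0.77 in the vGlut2 line (4 called down), and granule cell genes −0.44 (0 of 6 called), −0.05 (0 called) and −0.70 (3 called down). Lower Kcnk13 over both lines thus stands beside microglial genes that were called up in the vGlut2 line and uncalled, with overlapping sums, in the Gad2 line.

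The glial pair had a lower median log2 fold change than the other members in all 8 HD comparisons, a difference that was not tested. Its median log2 fold change was −0.44 in cerebral Gad2, −0.86 in PV, −0.33 in SST, −0.32 in cerebral vGlut2, −0.48 in cerebellar vGlut2 and −0.30 in cerebellar Gad2 IPs, −0.39 in cerebral and −0.40 in cerebellar inputs (−0.49 in the Gad2 and −0.33 in the vGlut2 line). For the other 8 members these medians were, in that order, −0.24, −0.10, −0.01, −0.05, −0.07, 0.17, −0.05 and −0.19 (0.09 and −0.17). Those 8 include Kcnk1 and Kcnk2, which are known in both neurons and astrocytes and were called up in cerebellar inputs. Both glial members were negative in 7 of 8 comparisons, Kcnk13 in cerebral Gad2 IPs (0.03) being the exception, and Kcnj10 in cerebellar Gad2 IPs was close to 0 (−0.03). In cerebellar vGlut2 IPs the Kcnj10 value rests on 1 control library, as above, and without replicate 5 of the controls Kcnk13 changed by −0.23 there. In the vGlut2 line of cerebral inputs 1 of 2 was positive. As Kcnk13 is depleted in every IP class, and Kcnj10 in Gad2 and vGlut2 IPs, their changes there cannot be assigned to the Cre-expressing cells. In PV and SST IPs Kcnj10 stood near input level, and which cells its change there comes from was not tested.

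Of 21 other K2P, Kir and partner genes, 0 were called in any IP group or in cerebral inputs, where at most 2.11% of all genes were. In cerebellar inputs 3 of 16 tested fell, Kcnk10 (−0.88), Kcnj9 (−0.43) and Kcnj16 (−0.70), beside 24.5% of all genes, with 0 in the Gad2 line alone and 4 in the vGlut2 line alone. Of 12 genes acting upstream of GIRK channels, 0 were called in IPs or cerebral inputs, and in cerebellar inputs 2 of 11 tested were up and 5 down, with 0 called in the Gad2 line alone and 8 in the vGlut2 line alone. In cerebellar vGlut2 IPs, where Kcnk2 rose, 0 of 13 tested family genes were called, and a difference from Kcnk2 was not tested.

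Across 54 control libraries, member levels correlated with those of other genes as a description of shared distribution (n = 54 libraries, 14327 genes). Kcnj4 was closest to Camkv (r 0.99), Shisa7 (0.988) and Crym (0.987), Kcnk2 to Phactr1 (0.968), Prkch (0.963) and Timp2 (0.962), and Kcnj2 to Alcam (0.949) and Stc1 (0.944). Kcnk1 was closest to Selenom (0.953), Kcnk3 to Ppfia4 (0.945), Kcnk9 to Pitpnc1 (0.881), Kcnj3 to Pak7 (0.932) and Kcnj6 to Sidt1 (0.912). Kcnk13 was closest to Adgrg1 (0.957), Slc6a11 (0.947), a gene of the astrocyte list, and Cxcl14 (0.942), and Kcnj10 to Chdh (0.975), Plekhh1 (0.967) and Rassf2 (0.965). Among members the highest values were Kcnk2 with Kcnj4 (0.893) and with Kcnj2 (0.872), Kcnj2 with Kcnj4 (0.823) and Kcnk1 with Kcnk3 (0.759). Kcnk2, Kcnj2 and Kcnj4 thus share a cerebral distribution, and Kcnk1 and Kcnk3 their highest level in cerebellar vGlut2 IPs.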

How the data were processed

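The deposited values are, per the labels, estimated counts made by the authors with STAR and Salmon on GRCm38.p6; 8.57% of them are not whole numbers. They were rounded, and 92 ERCC spike-in entries (at most 4.45% of a library) were kept out of library sizes. Members are the 10 named genes, matched by Ensembl identifier to GENCODE symbols and kept whatever their level; members and lists were chosen with earlier results of these data known. Protein-coding genes with a mean count above 10 in the libraries compared were TMM normalized and tested by edgeR's quasi-likelihood test, Benjamini-Hochberg adjusted over all tested genes, and called at 0.05. All 10 members passed that filter in each HD comparison. Input fits over several Cre lines carried the line as a term. SE is the fold change over the root of F. Levels are TMM-scaled CPM over all 106 libraries, and per kb values divide by the union of exons. Tools were R 4.3.3, edgeR 4.0.16, limma 3.58.1, DESeq2 1.42.0, matplotlib 3.10.9, pandas 2.3.3, numpy 2.4.6 and Python 3.11.15.

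The pipeline was tested on simulated data. Replicate numbers were checked for pairing: of 45 pairs of residual profiles with the same number in 11 comparisons, 24 correlated above 0.1 (r −0.746 to 0.901), and 11 were best matched to their own number. In cerebral Gad2 inputs all 3 pairs were above it (0.375 to 0.901), so numbers pair that line by the data alone, as the labels name no shared litter or day; the fit with the block was added after seeing this. In the other 10 comparisons not every pair was above it. In Gad2 IPs same-numbered mice also carry neighbouring identifiers, such as BO3 and BO2. In cerebral Gad2 IPs 4 of 6 pairs were above it, and the replicate block called 9 genes there against 4 in the main fit.

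Alternatives tried were DESeq2, its size factors in edgeR, no filter on low counts, edgeR's own filter, all gene types, library size without TMM, replicate number as a block, all IPs of a region in 1 fit, no re-sequenced libraries, SST inputs added, each line alone, control libraries only, inputs of the same line only, the mouse as a block, the longest transcript as length, and leaving out each library. The line by genotype interaction in cerebellar inputs and the replicate block in cerebral Gad2 inputs alone were added after seeing the data.

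Limits are these. IPs hold ribosome-bound mRNA of all cells that expressed Cre during development, plus carried-over RNA of others, and inputs hold all mRNA, so a ratio of IP to input mixes cell type with ribosome binding. Groups hold 3 to 6 mice, and effects much smaller than those called could pass unseen. Sex and litter are not given in the labels. Cerebellar and cerebral libraries of 1 mouse were treated as independent in the regional interactions. Transcript counts say nothing of channel protein or current.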

Additional observations from a re-analysis of the deposited data

Results flagged for a closer look

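A gap rule was applied to each member in each group of 4 or more libraries, so smaller input groups were not covered. A library is marked when it lies apart from the rest by an unusual share of the group's range. Chance does this in about 1 of 20 groups, and 9 of 150 groups were marked. They are Kcnk3 in control cerebral Gad2 IPs (replicate 6, highest, gap over range 0.742), Kcnk9 in control cerebellar vGlut2 IPs (replicate 1, lowest, 0.823), Kcnj2 in HD cerebellar Gad2 IPs (replicate 2, highest, 0.756) and in HD cerebellar vGlut2 inputs (replicate 4, highest, 0.888), Kcnj3 in HD cerebellar Gad2 IPs (replicate 4, lowest, 0.71), Kcnj4 in control and HD cerebellar vGlut2 IPs (replicate 5 in each, highest, 0.892 and 0.858), Kcnj6 in control cerebral Gad2 IPs (replicate 5, lowest, 0.651), and Kcnj10 in control cerebellar vGlut2 IPs (replicate 2, highest, 0.888). For Kcnj4 in control cerebellar vGlut2 IPs, 2.56 CPM against 0.0613 to 0.331 in the other controls makes most of the group mean. Kcnj10 at 127 CPM likewise lifts the control mean of that group, and without it the log2 fold change of Kcnj10 goes from −0.48 to −0.03. No called HD effect in IPs rests on any of these libraries.

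1 effect differs between groups: the change of Kcnk2 with HD is larger in cerebellar than in cerebral vGlut2 IPs by log2 1.13 (SE 0.194), adjusted p 0.00632 by edgeR's quasi-likelihood test, Benjamini-Hochberg adjusted. The 2 regions come largely from the same mice, which that fit does not use.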

How the results depend on the processing

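Members called moved, among others, as follows. In PV IPs (1) DESeq2 gave 2, and 0 remained with no filter on low counts, with the replicate block, without the re-sequenced library, with all IPs in 1 fit and in each refit leaving out a library (lowest 0, highest 0). DESeq2 gave 1 in cerebellar Gad2 IPs (0) and 1 in the Gad2 regional interaction (0). In cerebral inputs (1) the Gad2, PV, vGlut2 and SST lines alone gave 0 each, the Gad2 line alone with the replicate block 0, and leaving out a library gave 0 to 1. In cerebellar inputs (5) DESeq2 gave 6, and the vGlut2 line alone 2 up and 4 down. In the same inputs no filter gave 3, all gene types 3, the Gad2 line alone 0, the replicate block within line 0, and leaving out a library 0 to 7. Genome-wide, leaving out a library gave 96 to 7408 called genes there. With the mouse as a block, 3 members stayed called between cerebral vGlut2 IPs and inputs (7) and 6 between cerebellar vGlut2 IPs and inputs (10). In cerebellar inputs Kcnk9 (0.13) and Kcnj3 (0.27) were labelled reversed in the Gad2 line alone. Kcnj6 was also positive there (0.04), against −0.32 in the vGlut2 line alone. Kcnk2 in cerebellar vGlut2 IPs kept log2 1.06 to 1.09 in alternatives, and 1 to 1.21 on leaving out a library. Genome-wide calls, with lowest and highest alternative, were 4 (4, 75) in cerebral Gad2 IPs, 5 (0, 42) in PV, 0 (0, 2) in SST, 1 (0, 25) in cerebral vGlut2, 2 (0, 22) in cerebellar Gad2, 285 (109 with the replicate block, 665 with DESeq2) in cerebellar vGlut2 IPs, 21 (0, 119) in cerebral and 3544 (0, 7565) in cerebellar inputs, 9437 (6134) for cerebral vGlut2 IPs against inputs, and 15 (73), 46 (126) and 238 (1843) in interactions. Of single-member values, leaving out libraries aside, 600 were labelled the same, 16 stronger, 54 weaker and 2 reversed. Of those leaving out a library, 795 were labelled the same, 9 stronger and 94 weaker. Not every change of sign was labelled reversed: Kcnj10, negative over the lines of cerebral inputs, was 0.13 in the vGlut2 line alone.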
